A study of Mus musculus with 12 samples.

Results

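The 9 genes described here were Fhl1, Fhl2, Fhl3, Csrp1, Csrp2, Lmcd1, Pdlim1, Pdlim5 and Pdlim7, which encode LIM-domain proteins of muscle and of the actin cytoskeleton. They were taken by symbol from the 49671 genes of the count tables, and all 9 passed the filter that 18668 genes passed, a count over 1 in 3 or more of the 12 libraries. The 9 were chosen by name and, in part, selected on their measured difference between Lap2 siRNA and control siRNA, since genes such as Lmcd1, Fhl1 and Fhl2 changed in different directions. For this reason their siRNA differences are given as values with a standard error and no p-value, and whether the fit over all genes called them is stated as a description that supports nothing. The choice did not name the response to serum, and this response is given with its test. The serum responses use the same libraries as the siRNA differences, so their p-values are not free of the choice. This holds most for Lmcd1 with Lap2 siRNA, whose low starved level enters both.

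The LIM domain is a zinc-binding module that holds other proteins rather than DNA, and many of its carriers sit at focal adhesions, along stress fibres or at the Z-disc of muscle, with some moving into the nucleus. FHL proteins consist almost entirely of LIM domains, CRP proteins (genes Csrp1 and Csrp2) carry a pair of them, and PDLIM proteins join a PDZ domain to LIM domains. Serum response factor (SRF) and its cofactor MRTF-A, which is held back by monomeric actin until serum drives actin polymerisation, control many genes of the contractile and adhesion machinery through a DNA element called the CArG box.

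RNA-seq was made of NIH 3T3 cells, a fibroblast line from mouse embryos, with 3 libraries in each of 4 groups. Cells received control siRNA (AllStars) or an siRNA against all isoforms of Lap2, a nuclear envelope and nucleoplasmic protein family encoded by Tmpo, and were either starved in 0.3% FBS or given 15% FBS for 45 min. An siRNA lowers its target without deleting it and may act on other transcripts, and a single Lap2 siRNA was sequenced against a single control. The labels do not say whether the 3 libraries of a group came from separate cultures, so p-values measure the spread between these samples, which may be technical.

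Library totals ran from 18026298 to 26265253 counts, and no pair of libraries was identical (0 pairs). Tmpo was at 2775 to 2885 normalized counts with control siRNA in 0.3% FBS and at 982 to 1175 with Lap2 siRNA, and at 3019 to 3264 against 607 to 767 in 15% FBS. Normalized counts are counts brought to a common library size by the TMM method. All 8 fibroblast markers examined were detected, and of the 6 skeletal muscle markers Myod1, Myog and Ckm had 0 counts in every library. The other 3 were present at low levels, with Tnnt3 at 12.4 to 115 and Actn3 at 51.4 to 156 normalized counts in all 12 libraries and Myh3 in 8 of the 12.

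The sequences that follow are the 250 bases before those RefSeq start sites at which a CArG box was found, and are shown because they are what Fhl1, Fhl2 and Lmcd1 shared outside the expression values. The box was taken as CC, 6 bases of A or T, and GG, and it was searched on both strands of the 250 bases before and 50 after each start (build GRCm38.p6). Each sequence runs 5′ to 3′ on the strand of its gene, and capitals mark the CArG box and, in Lmcd1, also the CRE TGACGTCA, the element bound by CREB. Coordinates cover the printed bases.
Fhl1, chrX:56779433-56779682, plus strand: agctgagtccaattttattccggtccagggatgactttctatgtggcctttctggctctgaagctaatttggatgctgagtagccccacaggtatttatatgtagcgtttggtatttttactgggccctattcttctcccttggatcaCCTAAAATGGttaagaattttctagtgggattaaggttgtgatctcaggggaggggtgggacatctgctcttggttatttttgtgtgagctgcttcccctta
Fhl2 window 1, chr1:43163962-43164211, minus strand: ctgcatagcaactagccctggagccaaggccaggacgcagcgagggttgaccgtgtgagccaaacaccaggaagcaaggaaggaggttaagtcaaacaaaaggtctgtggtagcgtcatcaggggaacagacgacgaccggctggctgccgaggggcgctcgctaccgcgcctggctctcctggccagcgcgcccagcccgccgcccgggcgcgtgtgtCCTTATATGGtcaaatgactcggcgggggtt
Fhl2 window 2, chr1:43196762-43197011, minus strand: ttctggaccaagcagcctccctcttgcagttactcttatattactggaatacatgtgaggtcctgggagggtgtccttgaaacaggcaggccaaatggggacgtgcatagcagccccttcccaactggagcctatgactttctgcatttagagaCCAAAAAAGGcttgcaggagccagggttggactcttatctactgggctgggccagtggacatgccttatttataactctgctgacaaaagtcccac
Lmcd1, chr6:112273508-112273757, plus strand: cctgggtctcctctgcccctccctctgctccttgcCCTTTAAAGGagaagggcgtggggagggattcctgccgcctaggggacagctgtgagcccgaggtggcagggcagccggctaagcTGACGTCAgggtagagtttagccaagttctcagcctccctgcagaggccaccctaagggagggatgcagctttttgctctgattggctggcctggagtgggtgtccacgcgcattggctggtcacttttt

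The CArG box began 102 bases before the start of window 1 in Fhl1, whereas window 2 of Fhl1, at a separate start, held none. It began 31 and 96 bases before the separate starts of Fhl2, and 215 bases before the start of Lmcd1. It was in 4 of the 12 windows that 8 of the 9 genes had in the table, compared with 1.63% of all 32851 windows. In Lmcd1 the CRE lay 130 bases before the start, apart from the CArG box, and 1.79% of all windows held a CRE. The AP-1 element TGANTCA was in 7.81% of all windows and the MCAT element CATTCC in 14.7%, and 0 windows of the 8 genes held either. A match is a run of letters and not a shown binding site, and the gene counts do not tell which start was used.

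Levels between genes were compared as TMM-scaled CPM per kilobase of annotated exon, a scale on which a gene with unused exons is set too low. In starved control cells Csrp2 was the most abundant at 164 ± 9.22 (SD, n = 3), followed by Csrp1 at 55.4 and Fhl3 at 51.5. Fhl2 stood at 15.8, Pdlim5 at 11.6, Pdlim7 at 7.71, Lmcd1 at 7.17 and Pdlim1 at 2.17 on the same scale, and Fhl1 was near absence at 0.148. The ranges of neighbours in this order did not overlap. After serum Csrp1 led at 215, followed by Csrp2 at 167, Fhl2 at 136 and Fhl3 at 116, and only the last pair, Pdlim1 at 2.37 and Fhl1 at 2.09, overlapped.

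With Lap2 siRNA the order changed in the starved cells at the low end, where Lmcd1 at 0.89 stood below Pdlim1 at 1.74, and Csrp1 and Fhl3 overlapped at 50.1 and 48.2. In serum with Lap2 siRNA, Fhl2, Csrp2 and Fhl3 lay at 108, 106 and 106 with overlapping ranges, as did Pdlim5 and Pdlim7 at 19.2 and 18.9.

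**Figure D1:**
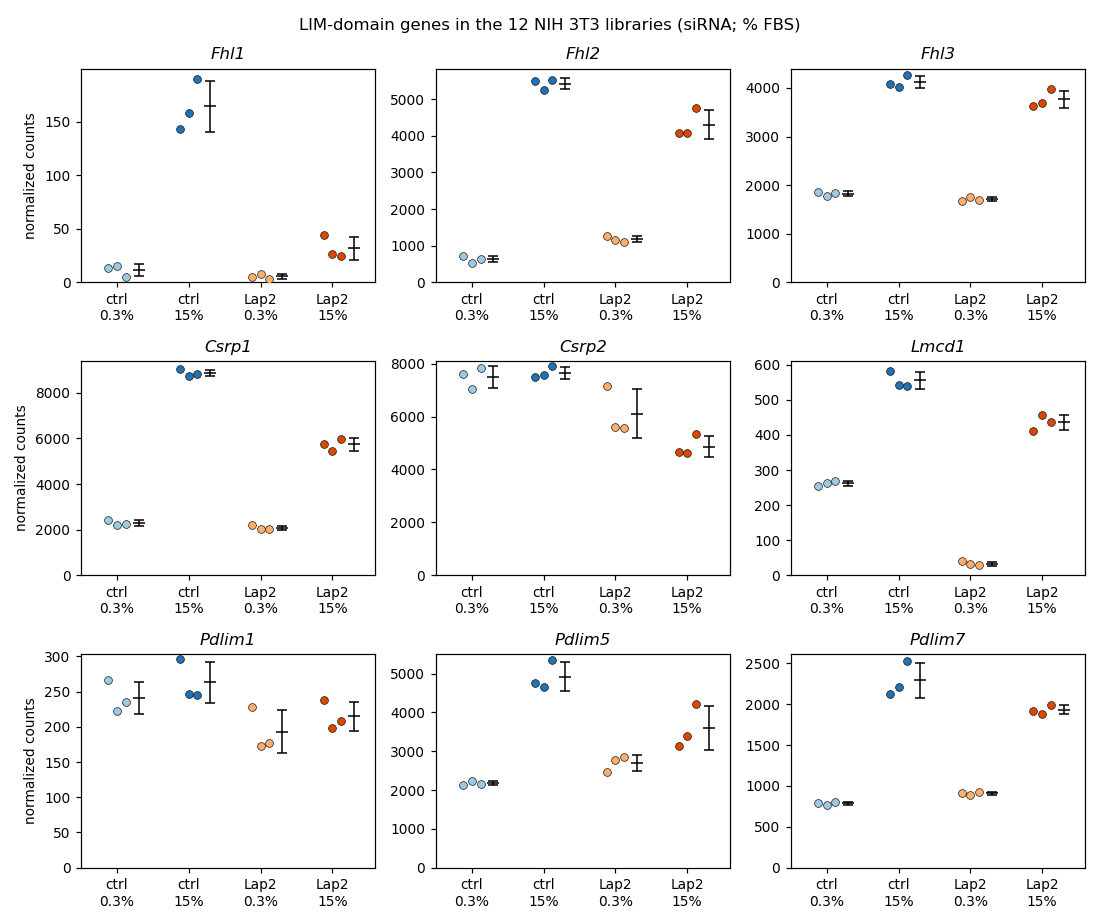
Normalized counts of the 9 genes (vertical axes, linear from 0, a scale of its own in each panel) in the 12 libraries, by siRNA and FBS. Points are libraries and the bars beside them the mean ± SD of 3. Fhl2 in serum sat between 5239 and 5531 with control siRNA, and Lmcd1 in starved cells between 27.8 and 39.5 with Lap2 siRNA.

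The first question was how these genes answered 45 min of serum. With control siRNA, 7 of the 9 rose and 0 fell, compared with 15.6% of all tested genes that rose and 13.9% that fell. With Lap2 siRNA, 7 rose and 1 fell, compared with 18.3% and 14.9% of all tested genes. The median log2 fold change (log2FC) of the 9 was 1.18 in the control cells and 1.14 after Lap2 siRNA, whereas that of all tested genes was -0.01 and 0.00. These comparisons share libraries with the siRNA comparisons below, and in bulk RNA fewer expressing cells and less RNA per cell cannot be told apart.

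Scaling to total counts in place of TMM moved the median of all genes by -0.21 in the serum response with control siRNA, by -0.23 with Lap2 siRNA, and by 0.11 and 0.09 in the siRNA comparisons in 0.3% and 15% FBS. On that scale 1632 genes rose and 5847 fell with control siRNA, compared with 2915 and 2597 under TMM, and 1658 and 5951 compared with 3420 and 2777 with Lap2 siRNA. Upper-quartile scaling gave 2183 and 3878, and 2383 and 3942. The 7 rises with control siRNA were called on every scale tried.

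Fhl1, best known in skeletal muscle, where it is mutated in several myopathies, lies at chrX:56731787-56793346 (mm10, plus strand), where the small nuclear RNA gene Gm23258 overlaps it on the same strand with 0 shared exonic bases. It had 14, 18 and 5 raw counts in starved control cells, or 13.7, 15.6 and 5.39 normalized counts in libraries 1, 2 and 3. Serum raised it to 143, 158 and 190 normalized counts. The groups did not overlap, and the mean was 14.1-fold higher in serum (log2FC 3.77, SE 0.28, adjusted p = 4.4e-13, edgeR).

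With Lap2 siRNA Fhl1 had 5.51, 8.32 and 3.09 normalized counts when starved, from 3 to 8 raw counts. In serum it had 43.9, 26.5 and 25.1 normalized counts. All 3 serum libraries were again above all 3 starved ones, and the rise was 5.65-fold (log2FC 2.46, SE 0.39, adjusted p = 5.8e-06). No starved library of either siRNA held more than 18 reads of this gene, so the folds rest on few reads.

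Fhl2, abundant in the heart and a cofactor that moves between focal adhesions and the nucleus, lies at chr1:43123074-43196984 (minus strand). In starved control cells it had 715, 542 and 636 normalized counts, and in serum 5495, 5239 and 5531. The rise of 8.59-fold (log2FC 3.10, SE 0.09, adjusted p = 5.9e-25) was next to that of Fhl1 in size and rested on far more reads.

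With Lap2 siRNA, starved cells had 1278, 1164 and 1108 normalized counts of Fhl2, all above the starved control libraries. Serum took it to 4078, 4074 and 4758, a rise of 3.64-fold (log2FC 1.86, SE 0.08, adjusted p = 3e-19). The lower fold came from a higher start and a lower end: the mean gain was 4791 normalized counts with control siRNA and 3120 with Lap2 siRNA.

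Fhl3, a cofactor that binds actin and nuclear factors, lies at chr4:124700701-124708611 (plus strand). It spanned 1774 to 1870 normalized counts in starved control cells and 4021 to 4269 in serum, and 1682 to 1758 against 3633 to 3972 with Lap2 siRNA. It rose by a log2FC of 1.17 (SE 0.06, adjusted p = 7.9e-17) with control siRNA and 1.14 (SE 0.06, adjusted p = 2.6e-16) with Lap2 siRNA. The difference between these responses was -0.03 (SE 0.09), next to the smallest among the 9, that of Pdlim1.

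**Figure D2:**
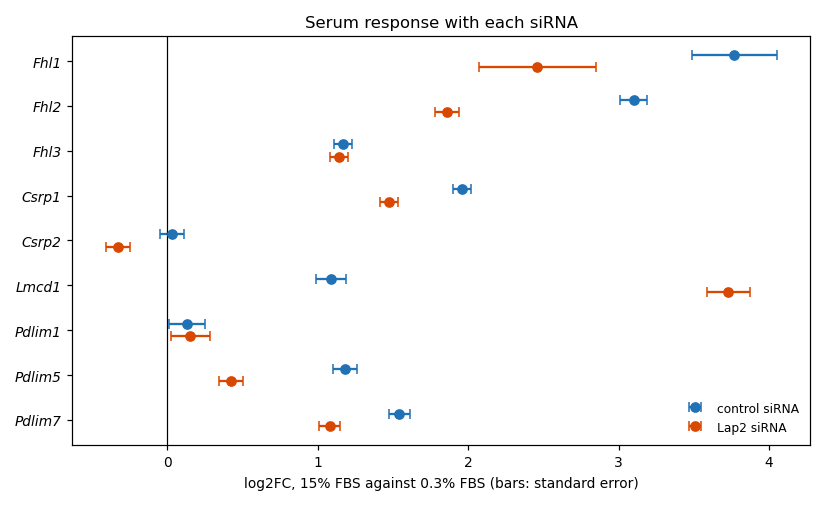
Serum response (log2FC of 15% against 0.3% FBS, horizontal axis) of the 9 genes with control siRNA (blue) and Lap2 siRNA (orange). Bars are standard errors of the edgeR fit. Lmcd1 had 1.09 and 3.73, whereas Fhl3 had 1.17 and 1.14.

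The CRP genes parted in serum. Csrp1, whose product binds alpha-actinin and zyxin on stress fibres, lies at chr1:135720061-135752232 (plus strand). It had 2430, 2193 and 2236 normalized counts in starved control cells and 9044, 8759 and 8823 in serum. With no overlap, it rose 3.88-fold (log2FC 1.96, SE 0.06, adjusted p = 9.6e-23).

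With Lap2 siRNA Csrp1 started at 2178, 2012 and 2015 normalized counts and reached 5772, 5452 and 5988 (log2FC 1.47, SE 0.06, adjusted p = 3.5e-19). The gain was 3669 normalized counts, compared with 6589 with control siRNA. The starved levels of both siRNAs lay close together, and the serum levels stood apart.

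Csrp2, a smooth muscle relative of Csrp1, lies at chr10:110920177-110939599 (plus strand). Its normalized counts in control cells were 7623, 7031 and 7848 when starved and 7489, 7564 and 7910 in serum, with overlapping groups and no call (log2FC 0.03, SE 0.08, adjusted p = 0.84), and the sign turned to -0.18 with total counts and -0.07 with upper-quartile scaling. With Lap2 siRNA it had 7165, 5603 and 5564 when starved, where the first library stood above the others. In serum it fell to 4641, 4624 and 5322 (log2FC -0.33, SE 0.08, adjusted p = 0.00095), and it was the only one of the 9 called lower in serum. Without the first starved library the log2FC was -0.21, and it was still called.

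Lmcd1, a cofactor with LIM and cysteine-rich domains that restrains GATA factors, lies at chr6:112273758-112330425 (plus strand). In starved control cells it had 255, 262 and 269 normalized counts and in serum 583, 543 and 541. It rose 2.12-fold (log2FC 1.09, SE 0.10, adjusted p = 5.8e-11).

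With Lap2 siRNA starved cells had 39.5, 30.2 and 27.8 normalized counts of Lmcd1, far under every other group. Serum took it to 412, 457 and 438, a 13.4-fold rise (log2FC 3.73, SE 0.14, adjusted p = 2.4e-21). The fold was larger than with control siRNA, but the gain in normalized counts was 403 against 294, since the serum levels lay near each other. The antisense gene 5031434C07Rik overlaps Lmcd1 on the opposite strand and Gm44193, an unverified transcript, on the same strand, and both share 0 exonic bases with it.

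The PDLIM genes gave a graded picture. Pdlim7 (enigma, an anchor of kinases and tropomyosin), at chr13:55495795-55513676 (minus strand), had 766 to 807 normalized counts in starved control cells and 2130 to 2528 in serum (log2FC 1.54, SE 0.07, adjusted p = 2e-18). With Lap2 siRNA it had 889 to 924 and 1881 to 1991 (log2FC 1.08, SE 0.07, adjusted p = 2.6e-14). A microRNA gene, Mir6945, shares 68 exonic bases with it on the same strand.

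Pdlim5, which ties protein kinase C to the Z-disc and the cytoskeleton, lies at chr3:142239590-142395696 (minus strand). In control cells it had 2138, 2234 and 2166 normalized counts when starved and 4767, 4661 and 5352 in serum (log2FC 1.18, SE 0.08, adjusted p = 8.3e-14). With Lap2 siRNA it had 2456, 2775 and 2851, and 3148, 3400 and 4226 in serum (log2FC 0.42, SE 0.08, adjusted p = 0.0001). The groups did not overlap, but this smaller rise lost its call when libraries were scaled to total counts (log2FC 0.19) and was 0.27, still called, without the third Lap2 siRNA library in serum.

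Pdlim1, a partner of alpha-actinin on stress fibres, lies at chr19:40221173-40271842 (minus strand) and spanned 173 to 297 normalized counts over all 12 libraries. Its starved and serum groups overlapped with either siRNA. The log2FC was 0.13 (SE 0.12, adjusted p = 0.5) with control siRNA and 0.15 (SE 0.13, adjusted p = 0.42) with Lap2 siRNA, and both turned to -0.08 with total counts.

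The second question was how Lap2 siRNA changed the levels at a fixed serum condition. In 0.3% FBS 3 of the 9 genes were called higher and 3 lower, beside 17.8% and 18.6% of all tested genes. The choice of the genes used these differences, so nothing is read from the counts. With total counts the calls were 3 higher and 1 lower, and with upper-quartile scaling or DESeq2 3 and 2. Over all genes, total counts gave 4692 higher and 2638 lower calls, compared with 3330 and 3480.

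Fhl2, Pdlim5 and Pdlim7 were higher in starved cells with Lap2 siRNA, with log2FC of 0.91 (SE 0.09), 0.31 (SE 0.08) and 0.21 (SE 0.07), and none of their groups overlapped. How many of all tested genes lacked overlap here was not counted, so nothing is read from overlap or its absence in 0.3% FBS. Lmcd1 was at 12.4% of the control level (log2FC -2.99, SE 0.14), the largest difference among the 9. Fhl1 was at 48.7% (log2FC -1.06, SE 0.46), but its libraries overlapped and it was not called. Csrp2 (log2FC -0.30, SE 0.08) and Pdlim1 (log2FC -0.32, SE 0.13) overlapped as well, with the first Lap2 siRNA library the highest of its group for both, and the call of Pdlim1 was lost on every other scale tried. Csrp1 (-0.14, SE 0.06) and Fhl3 (-0.10, SE 0.06) lay under the control libraries without being called, and Fhl3 turned to 0.01 with total counts.

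In 15% FBS 7 of the 9 were called lower and 0 higher with Lap2 siRNA, beside 12.1% and 11.4% of all tested genes. Nothing is read from these counts either, for the same reason. With total counts all genes gave 3471 higher and 1678 lower calls compared with 2125 and 2250. Fhl1 was at 19.5% of the control level (log2FC -2.37, SE 0.24), and its 3 libraries, at 43.9 or less, lay far under the 143 or more of the control. Csrp2 was at 63.5% (log2FC -0.65, SE 0.08) and Csrp1 at 64.6% (log2FC -0.63, SE 0.06). Pdlim5 was at 72.9%, Lmcd1 at 78.4%, Fhl2 at 79.4% and Pdlim7 at 84.3%. Fhl3 (91.4%) and Pdlim1 (81.8%) were not called, although the groups of neither gene overlapped. The share of all tested genes without overlap was not counted, so nothing is read from this.

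**Figure D3:**
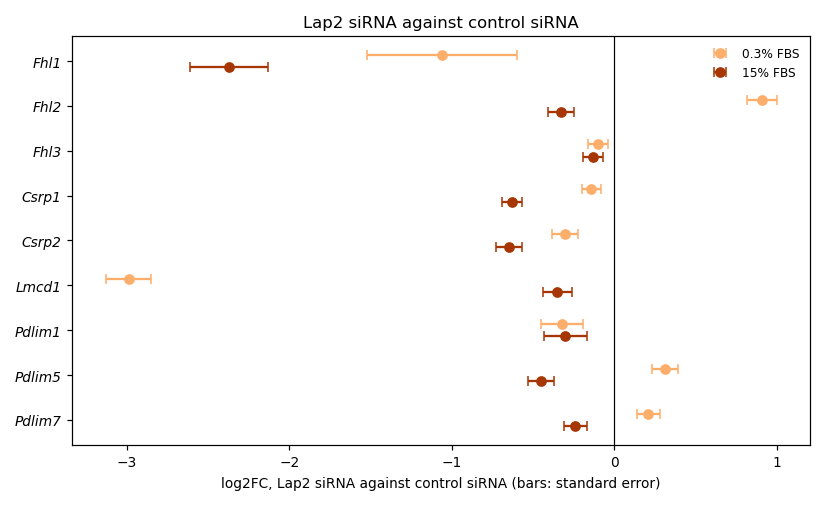
Difference between Lap2 siRNA and control siRNA (log2FC, horizontal axis) of the 9 genes in 0.3% FBS (light) and 15% FBS (dark), with standard errors of the edgeR fit. Fhl2, Pdlim5 and Pdlim7 lie above 0 in 0.3% FBS and below 0 in 15% FBS, and Lmcd1 moves from -2.99 to -0.35.

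Marker levels moved with the siRNA too. The 8 fibroblast markers (Col1a1, Col1a2, Col3a1, Fn1, Vim, Pdgfrb, Thy1 and S100a4) summed to 801932 to 832780 normalized counts in starved control cells and to 505059 to 610469 with Lap2 siRNA, and to 854499 to 939787 against 610483 to 678856 in serum. The 6 skeletal muscle markers summed to 229 to 279 and 71.1 to 77.1 in starved cells, and to 201 to 240 and 121 to 157 in serum, with 3 of the 6 at 0 everywhere. The 4 smooth muscle markers summed to 1785 to 1878 and 1333 to 1502 in starved cells, and to 3160 to 3639 and 2536 to 2622 in serum. Most of that sum was Smtn, with a median of 2141 over the 12 libraries against 51.5 or less for each of the others. The 4 heart muscle markers went the other way in starved cells, with sums of 1.73 to 19.6 with control and 44.7 to 56.7 with Lap2 siRNA. In serum they summed to 21.8 to 42.4 and 12.7 to 75.4, which overlapped. The epithelial, endothelial and immune lists each summed to 53.9 or less in every library. The part of these shifts in the differences above was not tested.

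The 2 serum responses were also set against each other gene by gene, as the response with Lap2 siRNA minus that with control siRNA on the log2 scale. Of the 9 genes 1 was called higher and 5 lower, beside 7.09% and 6.51% of all tested genes, and again nothing is read from these counts because the same siRNA differences make up the comparison. Lmcd1 stood alone at 2.64 (SE 0.17). Fhl1 had -1.31 (SE 0.57, not called), Fhl2 -1.24 (SE 0.11) and Pdlim5 -0.76 (SE 0.11). Csrp1 (-0.49, SE 0.09), Pdlim7 (-0.45, SE 0.10) and Csrp2 (-0.36, SE 0.11) followed, of which Csrp2 lost its call without any of 4 single libraries, and Fhl3 (-0.03, SE 0.09) and Pdlim1 (0.02, SE 0.18) were near 0.

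Seen by family, the make-up of the FHL, CRP and PDLIM levels differed between starved and serum-treated cells. Each level sums only the genes of the family that are among the 9. Pdlim2, left out for this reason, stood at 9.35 CPM per kilobase in starved control cells, above Pdlim7 at 7.71 and Pdlim1 at 2.17. Pdlim5 held the largest mean share of this PDLIM level in all 4 groups. Among the FHL genes, whose summed level per kilobase rose from 67.5 ± 3.51 to 254 ± 7.35 (SD, n = 3) in control cells, the share of Fhl2 was 23.3% ± 2.01 when starved and 53.4% ± 0.58 in serum. With Lap2 siRNA Fhl2 held 37.9% ± 1.98 of the starved level and 50.2% ± 1.11 of the serum level, where its range overlapped that of Fhl3 (49.6% ± 1.07). Fhl3 held most of the remainder in every group, and the share of Fhl1 stayed under 1% in every library, at 0.928% or less.

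Csrp1 held 25.3% ± 1.12 of the summed CRP level in starved control cells and 56.3% ± 0.978 in serum, and 27.5% ± 1.94 and 56.7% ± 1.23 with Lap2 siRNA. The shares were thus close between the siRNAs although the summed level in serum was 382 ± 4.59 with control and 245 ± 14.5 with Lap2 siRNA. Of the summed level of Pdlim1, Pdlim5 and Pdlim7, which leaves out Pdlim2, Pdlim5 held 47.8% to 57.4% by group mean and Pdlim1 never more than 11.2%. In control cells Pdlim7 held 35% to 36.6% when starved and 42.5% to 44.5% in serum. Pdlim1 went from 9.33% to 11.2% when starved to 3.98% to 5.47% in serum. In serum with Lap2 siRNA, Pdlim5 at 44.5% to 51.4% overlapped Pdlim7 at 44.3% to 49.8%. No test was run on the shares.

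**Figure D4:**
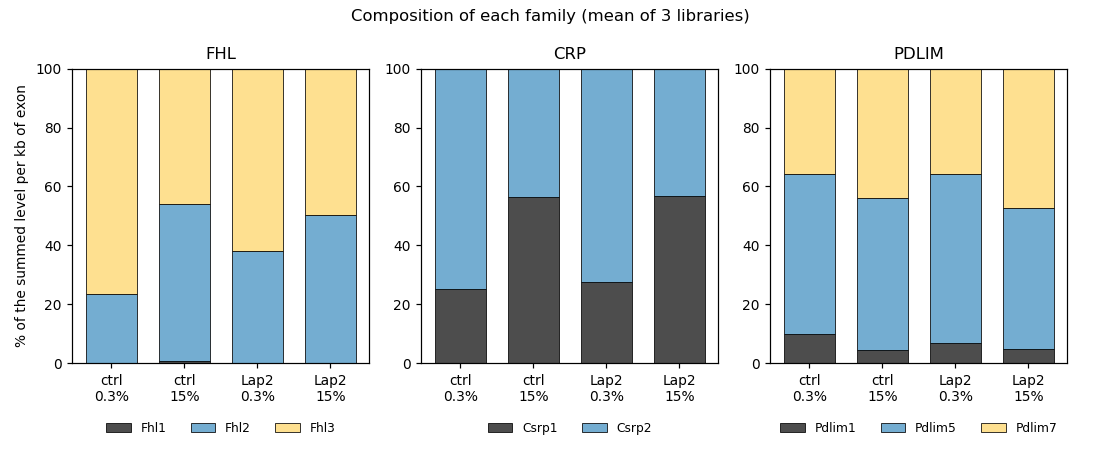
Share of each gene in the summed level of its family (vertical axis, percent of CPM per kilobase of exon, mean of 3 libraries) in the 4 groups. Fhl2 grows from 23.3% to 53.4% and Csrp1 from 25.3% to 56.3% with serum and control siRNA.

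The closest relatives of the 9 were low, apart from Pdlim2. Fhl5, Csrp3 and Pdlim3 had at most 0, 1 and 1 counts in any library and were not tested, and Pdlim4 had at most 7. Fhl4, with at most 72 counts, fell in serum with control siRNA (log2FC -1.31, SE 0.27, adjusted p = 0.00029) and was lower with Lap2 siRNA in starved cells (log2FC -1.06, SE 0.27, adjusted p = 0.0017). Ldb3, a Z-disc gene with at most 71 counts, rose with control siRNA (log2FC 1.13, SE 0.35, adjusted p = 0.012), and its response with Lap2 siRNA was 0.67 (SE 0.34, adjusted p = 0.13). Pdlim2, which restrains NF-kappaB and STAT proteins, fell in serum with control siRNA (log2FC -0.29, adjusted p = 0.011) and rose with Lap2 siRNA (log2FC 0.42, adjusted p = 0.00051). Lap2 siRNA lowered its starved level (log2FC -0.97, SE 0.09, adjusted p = 1.6e-10) and, less so, its serum level (log2FC -0.26, adjusted p = 0.034). In the edgeR fit the log2 response with Lap2 siRNA minus that with control siRNA was positive for Pdlim2, at 0.71 (SE 0.13, adjusted p = 0.00014). It was also positive for Fhl4, at 1.25 (SE 0.41, adjusted p = 0.035). For Fhl4 the fall seen with control siRNA was not called with Lap2 siRNA (log2FC -0.06, SE 0.30, adjusted p = 0.92).

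Of 43 other LIM-domain genes listed, 37 were tested. In serum 16 rose and 6 fell with control siRNA (median log2FC 0.22), and 17 rose and 3 fell with Lap2 siRNA (median 0.30). With total counts these became 11 and 10, and 10 and 8. Zyx (zyxin, a focal adhesion protein) rose by 1.53 and 1.61 and Lima1 (an actin bundler) by 1.76 and 1.71 (SE 0.06 for each), and both held the largest log2FC among those with at least 100 normalized counts.

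With Lap2 siRNA 18 of the 37 were lower and 5 higher in 0.3% FBS (median -0.24), and 15 were lower and 0 higher in 15% FBS (median -0.22). Of all tested genes 18.6% were lower and 17.8% higher in 0.3% FBS, and 12.1% and 11.4% in 15% FBS. With total counts the calls in the list became 13 and 7, and 11 and 2. Fblim1 (migfilin, a filamin partner) was lower by a log2FC of -1.56 (SE 0.13, adjusted p = 1.3e-11) and -1.44 (SE 0.12, adjusted p = 3.2e-11), and Mical1 (an actin oxidase) by -1.24 (SE 0.11) and -1.05 (SE 0.10). Lpp, a zyxin relative, was lower in serum (log2FC -0.74, SE 0.08, adjusted p = 2.9e-09), and Tes, also of focal adhesions, was higher in starved cells (log2FC 0.32, SE 0.08, adjusted p = 0.0013). The difference between the serum responses was called higher for 6 and lower for 2 of the 37, with Prickle1 at 0.86 (SE 0.11, adjusted p = 1.3e-06) and Tes at -0.86 (SE 0.11, adjusted p = 5.3e-07), and for 5 and 3 with total counts. Of all tested genes 7.09% were called higher and 6.51% lower.

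The 20 MRTF/SRF target genes without a LIM domain, several of which the study named from these same libraries and which are no independent evidence, gave a reference. In serum 20 rose with control siRNA (median 1.78) and 19 with Lap2 siRNA (median 1.65), beside 15.6% and 18.3% of all tested genes. With total counts 19 and 18 rose, and 1 fell with Lap2 siRNA. With Lap2 siRNA 10 were lower and 2 higher in 0.3% FBS (median -0.27), beside 18.6% and 17.8% of all tested genes. In 15% FBS 20 were lower (median -0.76), beside 12.1% of all tested genes. With total counts 9 were lower and 3 higher in 0.3% FBS, and 19 were lower in 15% FBS. The transgelin gene Tagln was lower by -1.87 (SE 0.09, adjusted p = 6.9e-18) in starved cells and rose more in serum with Lap2 siRNA, by a difference of 0.62 (SE 0.11, adjusted p = 0.00015), and it was the only one of the 20 called with a higher response, while 10 were called with a lower one. Of all tested genes 7.09% were called with a higher and 6.51% with a lower response. Srf itself had a difference of -0.62 (SE 0.08, adjusted p = 2.2e-06). Median log2FC of the 9 genes were -0.14 in 0.3% and -0.35 in 15% FBS, beside 0.01 and 0.02 for all tested genes. The choice of the 9 used these differences, so nothing is read from their medians beside those of all genes or of the lists.

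**Figure D5:**
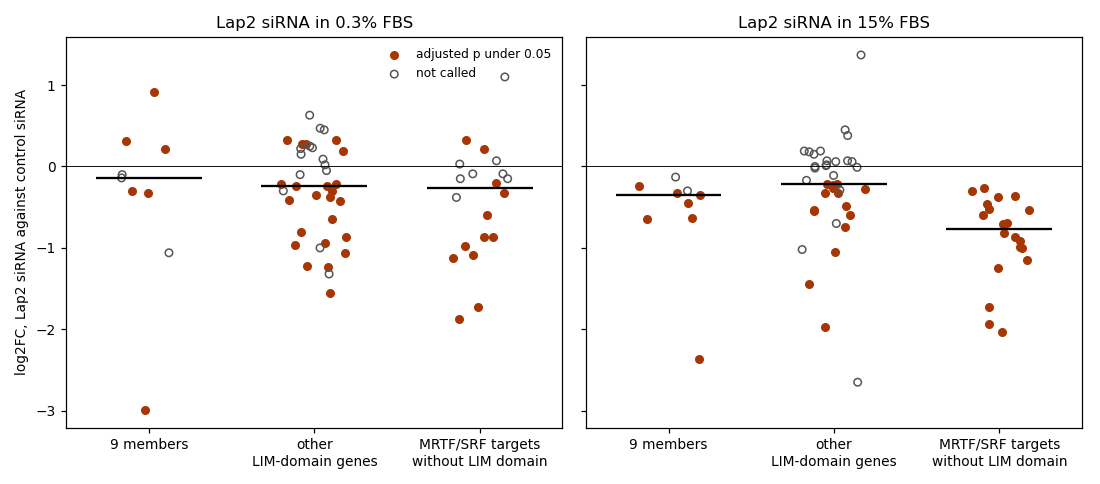
Difference between Lap2 siRNA and control siRNA (log2FC, vertical axis) for the 9 genes, the 37 other LIM-domain genes and the 20 MRTF/SRF targets in 0.3% FBS (left) and 15% FBS (right). Each point is a gene, filled where the adjusted p was under 0.05 (for the 9 genes a description only), and lines are medians. In 15% FBS the medians were -0.35, -0.22 and -0.76, of which that of the 9 genes is a description only, since these differences entered their choice.

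Across the 12 libraries the genes most like Fhl2 in log2 CPM, by Pearson's r over 10449 genes with at least 100 normalized counts on average, were Dusp6 (0.998), Fosl1 (0.995) and Pitpna (0.995). For Lmcd1 they were Marcksl1 (0.994), Lonrf1 (0.988) and Cd55 (0.981), and for Fhl1 Ptpn21 (0.978), Tnfrsf10b (0.976) and Cdc42ep3 (0.973). The libraries form 4 groups, so these values describe how the group levels line up and carry no test.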

How the data were processed

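RNA-seq libraries were made with a directional kit after ribosomal RNA removal. The deposited counts per gene were made by the authors with TopHat2 in Chipster at default settings on mm10 and HTSeq, without normalization. The versions, the annotation and the strand setting of the counting are not given in the sources used here. The start coordinates in the files were raised by 1.

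From the counts, edgeR 4.0.16 in R 4.3.3 was used with TMM, 1 mean for each of the 4 groups, glmQLFit and glmQLFTest on the 18668 genes that exceeded a count of 1 in 3 or more libraries, with p-values adjusted by Benjamini-Hochberg over all of them and a threshold of 0.05. The method was tested on simulated data. DESeq2 1.42.0, other scalings and filters, a replicate block, fits of only the groups compared and leaving out each library were tried. RefSeq start sites came from the reference tables.

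The 9 genes and all lists were chosen with earlier results of these data known. Other genes named are the 3 in each direction with the largest log2FC, an adjusted p under 0.05 and at least 100 normalized counts on average, the close relatives of the 9, and the 3 genes most correlated with Fhl1, Fhl2 and Lmcd1.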

Additional observations from a re-analysis of the deposited data

Results flagged for a closer look

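The serum response with Lap2 siRNA minus that with control siRNA was called in the edgeR fit over all genes for 6 of the 9 genes, 1 higher and 5 lower, beside 7.09% and 6.51% of all tested genes. The 9 were chosen partly on the siRNA differences that make up this comparison, so the calls are a description and no test of it. It was 2.64 on the log2 scale for Lmcd1, -1.24 for Fhl2, -0.76 for Pdlim5, -0.49 for Csrp1, -0.45 for Pdlim7 and -0.36 for Csrp2, whose call was lost without library 2 of the starved control, library 3 of the control in serum, or library 1 or 2 of Lap2 siRNA in serum.

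The difference passed edgeR's test with a negative sign for Tmpo (-0.79) and, among other LIM-domain genes, for Tes (-0.86) and Mical2 (-0.60). Tes and Mical2 rose with control siRNA (log2FC 0.92 and 0.49) and were not called with Lap2 siRNA. Tmpo was not called with control siRNA (log2FC 0.17) and fell with Lap2 siRNA (log2FC -0.62). The difference also passed, with a positive sign, for Fhl4 (1.25), Prickle1 (0.86), Pdlim2 (0.71), Limd2 (0.63), Tgfb1i1 (0.34) and Pxn (0.30). Of these, Tgfb1i1 rose with both siRNAs (log2FC 0.90 with control and 1.24 with Lap2 siRNA). Prickle1 and Pxn were called only with Lap2 siRNA (0.77 and 0.24), and Fhl4 only with control siRNA, as a fall (-1.31). Pdlim2 and Limd2 fell with control siRNA (-0.29 and -0.26) and rose with Lap2 siRNA (0.42 and 0.38). Single libraries far from the others of their group were not tested for, since every group held 3.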

How the results depend on the processing

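No log2FC of the 9 genes that was called changed sign under any setting tried. Of 306 log2FC under other settings, 298 stayed (serum responses on their side of the threshold, siRNA differences within the spread between replicates), 7 siRNA differences moved by more, and 1 serum response, that of Pdlim5 with Lap2 siRNA under total counts (0.19), lost its call. Calls lost in the siRNA comparisons are given next. Of 540 that left out 1 library, 536 stayed and 4 moved. The genes called in serum numbered 7 with control siRNA throughout, and 7 or 8 with Lap2 siRNA. With Lap2 siRNA in 0.3% FBS they numbered 4 to 7. The Pdlim1 call there was lost with total counts, upper-quartile scaling, DESeq2, the fit of the 2 groups alone, and without any library of the starved control, library 2 of the control in serum, library 2 or 3 of starved Lap2 siRNA, or library 2 of Lap2 siRNA in serum. The Csrp2 call was lost with total counts, and the Pdlim7 call in the fit of the 2 groups or without library 2 of the starved control, each time with 4 left. Fhl1 gained a call without library 3 of the starved control or library 2 of starved Lap2 siRNA, and Csrp1 without library 1 of the latter, with 7 called. In 15% FBS 6 to 9 were called, with Pdlim7 lost under total counts or without library 3 of the control, Fhl3 gained with DESeq2, and Fhl3 and Pdlim1 gained in the fit of the 2 groups or without library 1 of starved Lap2 siRNA. The Csrp2 difference between the serum responses lost its call without library 2 of the starved control, library 3 of the control in serum, or library 1 or 2 of Lap2 siRNA in serum, when 5 were left. Without division by length the share of Fhl2 in starved control cells was 25.5% in place of 23.3%. In serum with Lap2 siRNA the overlaps of shares given above were then absent. Fhl2 held 52.3% to 54.3% against 45.4% to 47.4% for Fhl3, and Pdlim5 59.3% to 65.8% against 31% to 36.2% for Pdlim7.

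Deviations from the group mean had r from -0.034 to 0.043 over 18 pairs of same-numbered libraries, compared with -0.037 to 0.040 for other pairs. Centring each group of 3 ties these values together, so a batch shared by same-numbered libraries was not tested. With the replicate block the counts of genes called stayed at 7, 8, 6, 7 and 6. Depth limited Fhl1, which had 3 to 18 counts in starved libraries.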
